A study of Mus musculus with 17 samples.

Results

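Rab proteins are small GTPases that direct vesicle traffic, and the chromatin at their genes was followed here from naive B cells to plasma cells. Of the 66177 accessible regions in the ATAC-seq table, 183 were annotated to a gene of the series Rab plus a number, with or without 1 letter, and lay within 50 kb of the annotated transcription start site. They belong to 54 genes of the 15301 gene symbols in the table. ATAC-seq uses a transposase to insert sequencing adapters into open chromatin, so that reads gather where chromatin is accessible. Accessibility is given as RPPM, the reads in a region per 1000000 reads in all regions of the same library. The rule for regions uses gene names and distances, and the gene family was picked with earlier results of these data known.

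The 16 libraries are from 3 B-lineage cell types of mice with or without the methyltransferases of the Dnmt3 family. These are naive B cells (abbreviated nB), B cells of germinal centers (GCB), and plasma cells of the bone marrow (BMPC), with Dnmt3-sufficient mice called C and Dnmt3-deficient mice called KO. All mice were given as B6;129S4-Dnmt3atm3.1Enl Dnmt3btm5.1Enl/Mmnc and carried floxed alleles of the de novo DNA methyltransferase genes Dnmt3a and Dnmt3b. Both genes were fl/fl in C and KO mice. KO mice also carried 1 Cre allele active in the B lineage, where it deletes both genes, and C mice carried none. The nB (B220+ Fas- GL7-) came from lymph nodes of unimmunized male mice, with 3 C and 2 KO libraries. The GCB (B220+ PE+ GL7+ Fas+) came from lymph nodes 30 days after immunization with phycoerythrin (PE) in complete Freund's adjuvant, each library from pooled mice. GCB were represented by 1 female and 1 male C library and by 3 female and 1 male KO libraries. The BMPC (CD138+) came from bone marrow of female mice 30 days after the same immunization, with 3 C and 2 KO libraries. By the study's methods nB and BMPC libraries each came from a single mouse. Sex, immunization and tissue therefore differ together with cell type between nB and BMPC. Between nB and GCB, immunization, the mix of sexes and pooling differ with cell type. Between GCB and BMPC, tissue, the mix of sexes, pooling and selection for PE binding do. In each comparison these contributions cannot be told apart. Ages are not given in the labels.

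The reads in regions ranged from 4104875 to 6079018 per nB library, from 907959 to 2280954 per GCB library and from 5357687 to 8232313 per BMPC library. A count of 3 reads, taken as the floor, was worth 0.494 to 0.731 RPPM in nB, 1.32 to 3.30 RPPM in GCB and 0.364 to 0.560 RPPM in BMPC, and covers counting error only. GCB libraries were thus the least precise. Spearman correlations across regions between replicates were 0.862 to 0.922 for GCB, and for the other cell types 0.964 to 0.974. Regions on the mitochondrial genome held from 7.43% to 10.1% of these reads in the GCB libraries, and 2.56% to 4.59% elsewhere.

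Markers of naive B cells and plasma cells were checked against the labels, and not every marker promoter was highest in its own cell type. The promoter of Tnfrsf17, the plasma cell survival receptor BCMA, averaged 0.392 RPPM in C nB, 1.35 in C GCB and 20.0 in C BMPC, and that of Fcer2a, the CD23 gene of naive B cells, 42.4, 14.3 and 1.20 RPPM in the same groups. The plasma cell gene Sdc1, which encodes the sorted antigen CD138, and the naive B cell gene Ighd had no promoter region in the table.

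A Rab protein cycles between a GDP-bound form in the cytosol and a GTP-bound form on a particular membrane, where it recruits effectors that move, tether and fuse vesicles. Guanine exchange factors load GTP, GTPase activating proteins end the signal, and escort and GDI proteins handle the lipid anchor. Naive B cells use this machinery for antigen uptake and receptor recycling, while plasma cells carry a large ER and Golgi and secrete antibody continuously.

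Windows that carried large changes between cell types, and the window with the smallest p between genotypes, are printed first, from the mm9 genome on the forward strand. Each is 300 bases around the center of a region that touches no untranslated region. Capitals mark short motif cores searched on both strands: the IRF4 core GAAAC, the PU.1 core GGAAGT, the E2A cores CAGCTG and CACCTG, the Oct-2 core ATGCAAAT, the AP-1 core TGANTCA and the XBP1 core TGACGTG. The Rab21 window (chr10:114769989-114770288) had the largest increase from nB to BMPC. The Rab30 window (chr7:99931509-99931808) had the largest increase from nB to GCB and the Rab2a window (chr4:8450690-8450989) the largest decrease. The Rab44 window (chr17:29292689-29292988) was chosen after its values were seen.
Rab21 upstream window: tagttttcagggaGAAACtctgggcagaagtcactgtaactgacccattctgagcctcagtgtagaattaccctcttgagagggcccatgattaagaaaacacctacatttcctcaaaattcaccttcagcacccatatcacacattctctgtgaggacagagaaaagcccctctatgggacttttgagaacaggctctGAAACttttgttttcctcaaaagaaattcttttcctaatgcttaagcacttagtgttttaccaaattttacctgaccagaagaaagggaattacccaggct
Rab30 intron window: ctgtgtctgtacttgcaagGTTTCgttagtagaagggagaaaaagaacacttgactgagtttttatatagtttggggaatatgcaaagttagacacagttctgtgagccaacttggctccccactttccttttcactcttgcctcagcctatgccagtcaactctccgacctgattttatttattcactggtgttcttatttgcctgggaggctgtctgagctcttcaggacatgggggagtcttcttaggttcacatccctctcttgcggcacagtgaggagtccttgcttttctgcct
Rab2a upstream window: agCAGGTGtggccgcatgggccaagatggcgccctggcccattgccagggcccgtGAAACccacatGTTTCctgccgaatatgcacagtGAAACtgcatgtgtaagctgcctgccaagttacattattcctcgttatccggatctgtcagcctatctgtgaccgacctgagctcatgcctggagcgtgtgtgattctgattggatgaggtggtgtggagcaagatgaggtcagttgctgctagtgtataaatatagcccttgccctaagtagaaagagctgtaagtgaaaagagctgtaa
Rab44 downstream window: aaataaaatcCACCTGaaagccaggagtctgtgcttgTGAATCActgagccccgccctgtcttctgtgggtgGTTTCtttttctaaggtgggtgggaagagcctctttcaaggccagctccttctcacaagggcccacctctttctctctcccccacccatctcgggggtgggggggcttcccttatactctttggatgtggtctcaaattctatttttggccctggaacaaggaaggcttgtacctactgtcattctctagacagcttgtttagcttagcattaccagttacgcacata
The Rab21 window holds 2 IRF4 cores and the Rab30 window 1 IRF4 core. The Rab2a window holds 3 IRF4 cores and 1 CACCTG core, and the Rab44 window holds 1 each of the CACCTG, AP-1 and IRF4 cores. Among all 65889 windows of this length searched, 55.4% held the IRF4 core, 30.3% the PU.1 core, 26.8% CACCTG, 20.6% CAGCTG, 9.18% the AP-1 core, 3.96% the Oct-2 core and 1.56% the XBP1 core. A match is a run of letters and not a measured binding site.

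Most Rab genes had an accessible promoter, and most Rab regions lay elsewhere. Of the 54 genes, 46 had a region within 1000 bp of the start, taken as the promoter, and 17 genes had only 1 region. The table annotates 52 Rab regions (28.4%) as promoter, against 21.7% of all regions. A further 95 lay in introns outside promoters and 33 outside genes. By GENCODE gene models of mm9, 131 of the 183 regions overlapped a gene of the same symbol and 36 overlapped no protein-coding gene. The other 16 overlapped only genes of other symbols. At Rab7b, Rab29 and Rab42, 8 of these lay in a gene that also covers the annotated Rab start (5430435G22Rik, Rab7l1 and Rab42-ps). The Rab4a region at -15665 bp lay in Gm20388, which also overlaps the region at the Rab4a start. For the rest of the 16 and for the 36 the assignment is by distance alone. The median width was 513 bp (510 bp for all regions), and the median level over the 16 libraries was 6.59 RPPM (5.99 for all regions). A mean of at least 1 RPPM was reached by 179 of the 183 regions. The regions farthest inside the distance limit were annotated to Rab28 at 43386 bp and to Rab31 at 46386 and 48038 bp, and the nearest beyond it to Rab28 at 60731 bp and to Rab38 at 64886 and 72454 bp. No region annotated to Rab27b, Rab11b, Rab3c or Rab2b lay within 50 kb of a start, and the only Rab6a region within that distance lay inside the neighboring gene Mrpl48.

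Promoter levels are compared per kb of region, since regions differ in width. Averaged over all libraries, the promoters of Rab5b, which acts on early endosomes, and Rab40c had the highest levels, at 94.8 and 89.2 RPPM per kb. Their order differed between cell types, and in GCB Rab8a also lay above Rab40c. In C nB Rab40c had 106 and Rab5b 98.8 RPPM per kb, and in C BMPC 91.0 and 83.8. In C GCB Rab40c had 78.8, Rab8a 86.6 and Rab5b 98.2, and in KO GCB 69.3, 74.0 and 96.1. These differences were not tested. Rab8a at 83.8 and Rab5a at 72.8 RPPM per kb came next over all libraries. The lowest 2 promoters over all libraries were those of Rab7b and Rab9b, at 3.26 and 4.93 RPPM per kb. This did not hold within every group. Rab4a had 3.18 and Rab9b 6.15 in C GCB, and Rab32 had 2.79 and Rab9b 4.37 in C BMPC. In KO BMPC Rab7b had 9.70 and Rab32 2.18. Undivided by width, the 5 highest promoters averaged from 112 RPPM (Rab5a) to 125 RPPM (Rab40c), and none of these 5 was called between C cell types.

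Across cell types more Rab regions were called higher than lower in GCB and in BMPC relative to nB, and the higher ones lay mostly over 10 kb from a start. A region was called at a Benjamini-Hochberg adjusted p of at most 0.01 from limma, over all 66177 regions, with a change of at least 1 on the log2(RPPM + 1) scale. This scale understates changes at low levels. Regions named by rule for a change between C cell types had to be without overlap of libraries in that comparison. From nB to GCB in C mice, 34 of 183 Rab regions were called higher (18.6%, against 14.2% of all regions) and 7 lower (3.83%, against 8.47% of all regions). Between nB and BMPC, 46 were higher in BMPC (25.1%, against 18%) and 26 lower (14.2%, against 20.1%). From GCB to BMPC, 19 were higher (10.4%, against 11.3%) and 31 lower (16.9%, against 19.1%). The median log2 fold change of Rab regions was 0.16, 0.18 and 0.08 in these comparisons, beside 0.05, 0.03 and -0.06 for all regions. The 3 comparisons share libraries and are not independent of each other. Quantile normalization gave 25 higher and 10 lower from nB to GCB (11.2% and 10.7% of all regions) and 28 higher and 23 lower from GCB to BMPC (14.5% and 14.9% of all regions), so that the balance of the latter turned. Under it the median of all regions moved from 0.05 to -0.06 between nB and GCB, from -0.06 to 0.09 between GCB and BMPC and, for nB and GCB of KO mice, from 0.12 to -0.07. In bulk libraries a change in the share of cells with an open region and a change in accessibility per cell cannot be told apart.

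Most of the Rab regions called higher in GCB or in BMPC than in nB lay over 10 kb from a start. Of the 69 Rab regions at that distance, 22 (31.9%) were called higher and 3 (4.35%) lower from nB to GCB, beside 16.1% and 8.44% of all 24614 regions at that distance. From nB to BMPC, 27 (39.1%) were higher and 8 (11.6%) lower, beside 20.5% and 23.2%. Of the 61 Rab regions over 1 and up to 10 kb from a start, 6 (9.84%) were higher and 2 (3.28%) lower in GCB than in nB. All regions at that distance had 13.97% and 8.31%. In BMPC against nB, 13 (21.3%) were higher and 14 (22.95%) lower, beside 20.1% and 20.6%. Of the 53 Rab regions within 1 kb, 6 (11.3%) were higher and 2 (3.77%) lower in GCB than in nB, beside 9.07% and 6.90%. In BMPC against nB, 6 (11.3%) of them were higher and 4 (7.55%) lower, beside 11.2% and 6.22%. Differences between distances were not tested. Of the 52 Rab regions annotated as promoter, 7 were higher (13.5%) and 1 lower (1.92%) from nB to GCB, beside 8.88% and 6.99% of all regions annotated as promoter. Between nB and BMPC 8 were higher (15.4%) and 3 lower (5.77%), beside 11.2% and 6.41%, and from GCB to BMPC 3 were higher (5.77%) and 6 lower (11.5%), beside 11.7% and 7.33%. Summed over all 183 regions, C libraries had 2984 ± 57.3 RPPM (SD, n = 3) in nB, 3054 ± 98.7 RPPM (SD, n = 2) in GCB and 3203 ± 16.4 RPPM (SD, n = 3) in BMPC. None of 27 two-sided exact permutation tests on such sums passed adjustment (lowest adjusted p 0.514), and 3 libraries against 3 cannot give a p below 0.1.

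**Figure D1:**
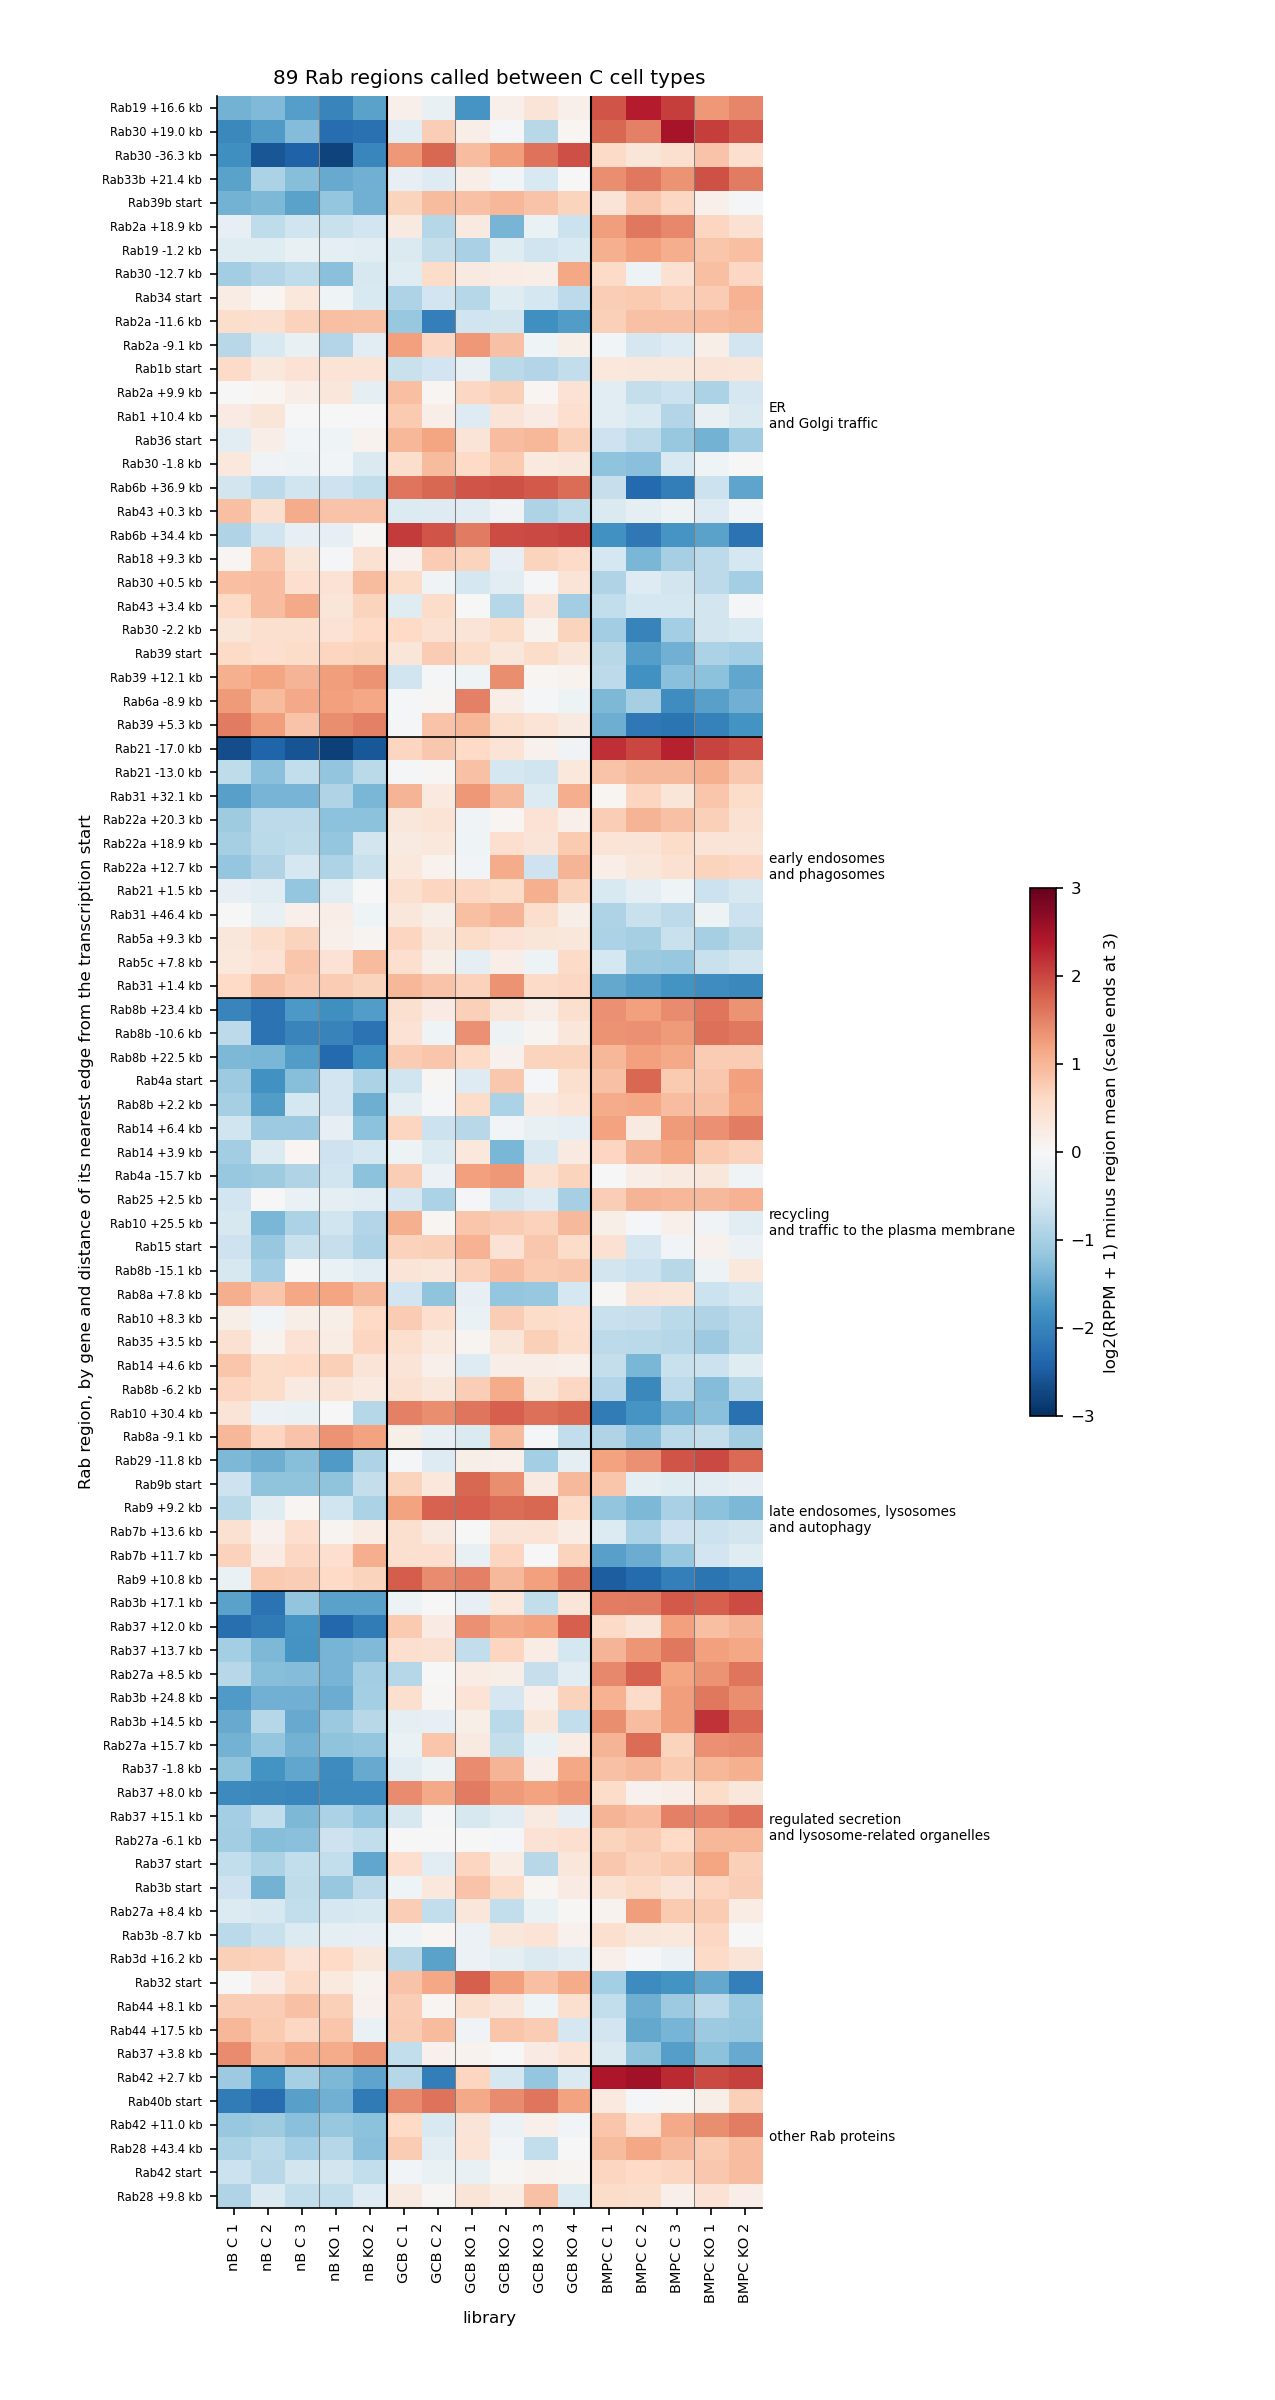
Accessibility of the 89 Rab regions called in at least 1 comparison between C cell types (rows, grouped by role) in the 16 libraries (columns), as log2(RPPM + 1) minus the mean of each region over the libraries, so that red is above and blue below that mean. Regulated secretion contributes 20 of the rows and ER and Golgi traffic 27, and the C columns of each cell type stand next to its KO columns.

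**Figure D2:**
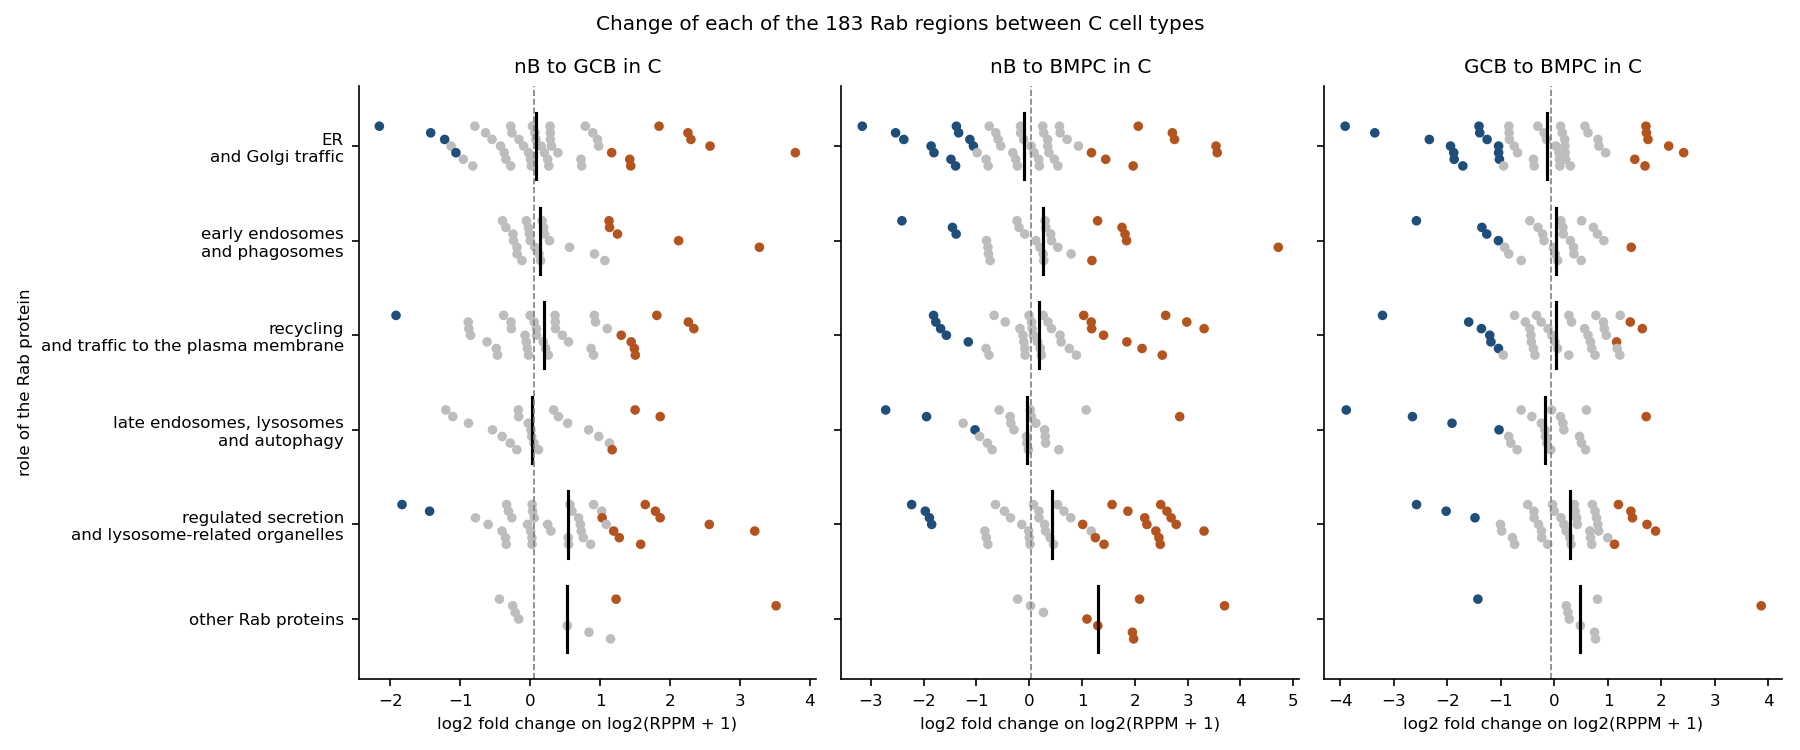
Log2 fold change on the log2(RPPM + 1) scale of each of the 183 Rab regions (points) by role in the 3 comparisons between C cell types, with regions called higher in orange, called lower in blue and others in gray. Black lines are role medians and the dashed line is the median of all regions, and regulated secretion has its median at 0.43 from nB to BMPC.

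Genes of regulated secretion and lysosome-related organelles had 15 of 40 regions called higher (37.5%, against 18% of all regions), all at 3 of the 8 genes, and 4 lower (10.0%, against 20.1%) from nB to BMPC, with a median log2 fold change of 0.43. In GCB, 9 were higher (22.5%, against 14.2%) and 2 lower (5%, against 8.47%) than in nB (median 0.55). From GCB to BMPC 6 were higher (15.0%, against 11.3%) and 3 lower (7.50%, against 19.1%), with a median of 0.30. The 4 genes with the most regions called higher from nB to BMPC, chosen after their values were seen, were Rab37 (6 of 11, with 1 lower), Rab3b (5 of 5), Rab27a (4 of 7) and, from the recycling group, Rab8b (4 of 10, with 1 lower). The other 5 secretion genes had 0 regions called higher, with 2 lower at Rab44, 1 lower at Rab32 and none at Rab3a, Rab3d or Rab26. Rab27a acts in the docking of lysosome-related organelles and exosomes at the plasma membrane, and Rab3b and Rab37 are found on secretory vesicles.

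At Rab37 the largest increase from nB to GCB lay in an intron 8035 bp from the start (chr11:114960781-114961249). It measured 0.974, 0.942 and 0.931 RPPM in the C nB libraries, 18.9 and 15.5 in C GCB, and 9.88, 7.12 and 7.63 in C BMPC. Every GCB and BMPC library lay above every nB library, with GCB highest, and the KO libraries lay in the same order. Relative to nB, the log2 fold change was 3.22 in GCB (SE 0.25, adjusted p = 6.31e-11) and 2.23 in BMPC (SE 0.22, adjusted p = 1.86e-09). A site at 3809 bp, across an exon and an intron (chr11:115019302-115019606), moved the other way. It measured 15.1, 10.4 and 11.9 RPPM in C nB, 2.64 and 5.62 in C GCB, and 3.51, 1.64 and 0.934 in C BMPC. All nB libraries lay above the others, with a log2 fold change of -1.44 to GCB (SE 0.33, adjusted p = 0.000817) and -2.23 to BMPC (SE 0.29, adjusted p = 2.50e-07). The call to GCB at this site was lost under some alternatives, as given in the closing section.

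The distances at Rab37 are from different annotated starts. The start at chr11:115014878-115015659 was open in all cell types, at 41.7, 49.2 and 51.6 RPPM in C nB and 33.9, 34.8 and 32.9 in C BMPC. The start at chr11:114952612-114953279 rose from 1.46, 1.130 and 1.49 RPPM in C nB to 6.24, 5.66 and 6.07 in C BMPC, without overlap (log2 fold change 1.57, SE 0.34, limma adjusted p = 0.000283). The first of these was not called in any comparison.

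All 5 Rab3b regions were called higher from nB to BMPC. The highest in BMPC lay in an intron 17130 bp from the start (chr4:108580026-108580779). It measured 1.95, 0.942 and 2.98 RPPM in C nB, 7.04 and 7.96 in C GCB, and 25.2, 25.5 and 31.0 in C BMPC. The cell types rose in that order without overlap, and BMPC exceeded nB by 3.31 (SE 0.27, adjusted p = 3.59e-11) and GCB by 1.73 (log2; SE 0.30, adjusted p = 2.55e-05). The Rab3b promoter measured 5.60, 2.83 and 5.02 RPPM in C nB and 13.1, 14.2 and 12.5 in C BMPC, with no overlap (log2 fold change 1.42, SE 0.24, limma adjusted p = 1.08e-05).

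At Rab27a an intronic region 8504 bp from the nearest start (chr9:72920555-72921508) carried the largest change. It measured 2.68, 1.70 and 1.67 RPPM in C nB, 2.64 and 5.62 in C GCB, and 16.8, 21.5 and 14.0 in C BMPC. BMPC lay above both other cell types, while nB and GCB overlapped. On the log2 scale BMPC exceeded nB by 2.61 (SE 0.29, adjusted p = 9.54e-09) and GCB by 1.89 (SE 0.32, adjusted p = 1.62e-05). The Rab27a promoter was already open in nB, at 42.6, 39.4 and 41.1 RPPM, and measured 62.9 and 71.2 in C GCB and 54.0, 60.4 and 49.0 in C BMPC. Its log2 fold changes of 0.69 to GCB (SE 0.15, adjusted p = 0.000491) and 0.40 to BMPC (SE 0.13, adjusted p = 0.0138) were below the size needed for a call.

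**Figure D3:**
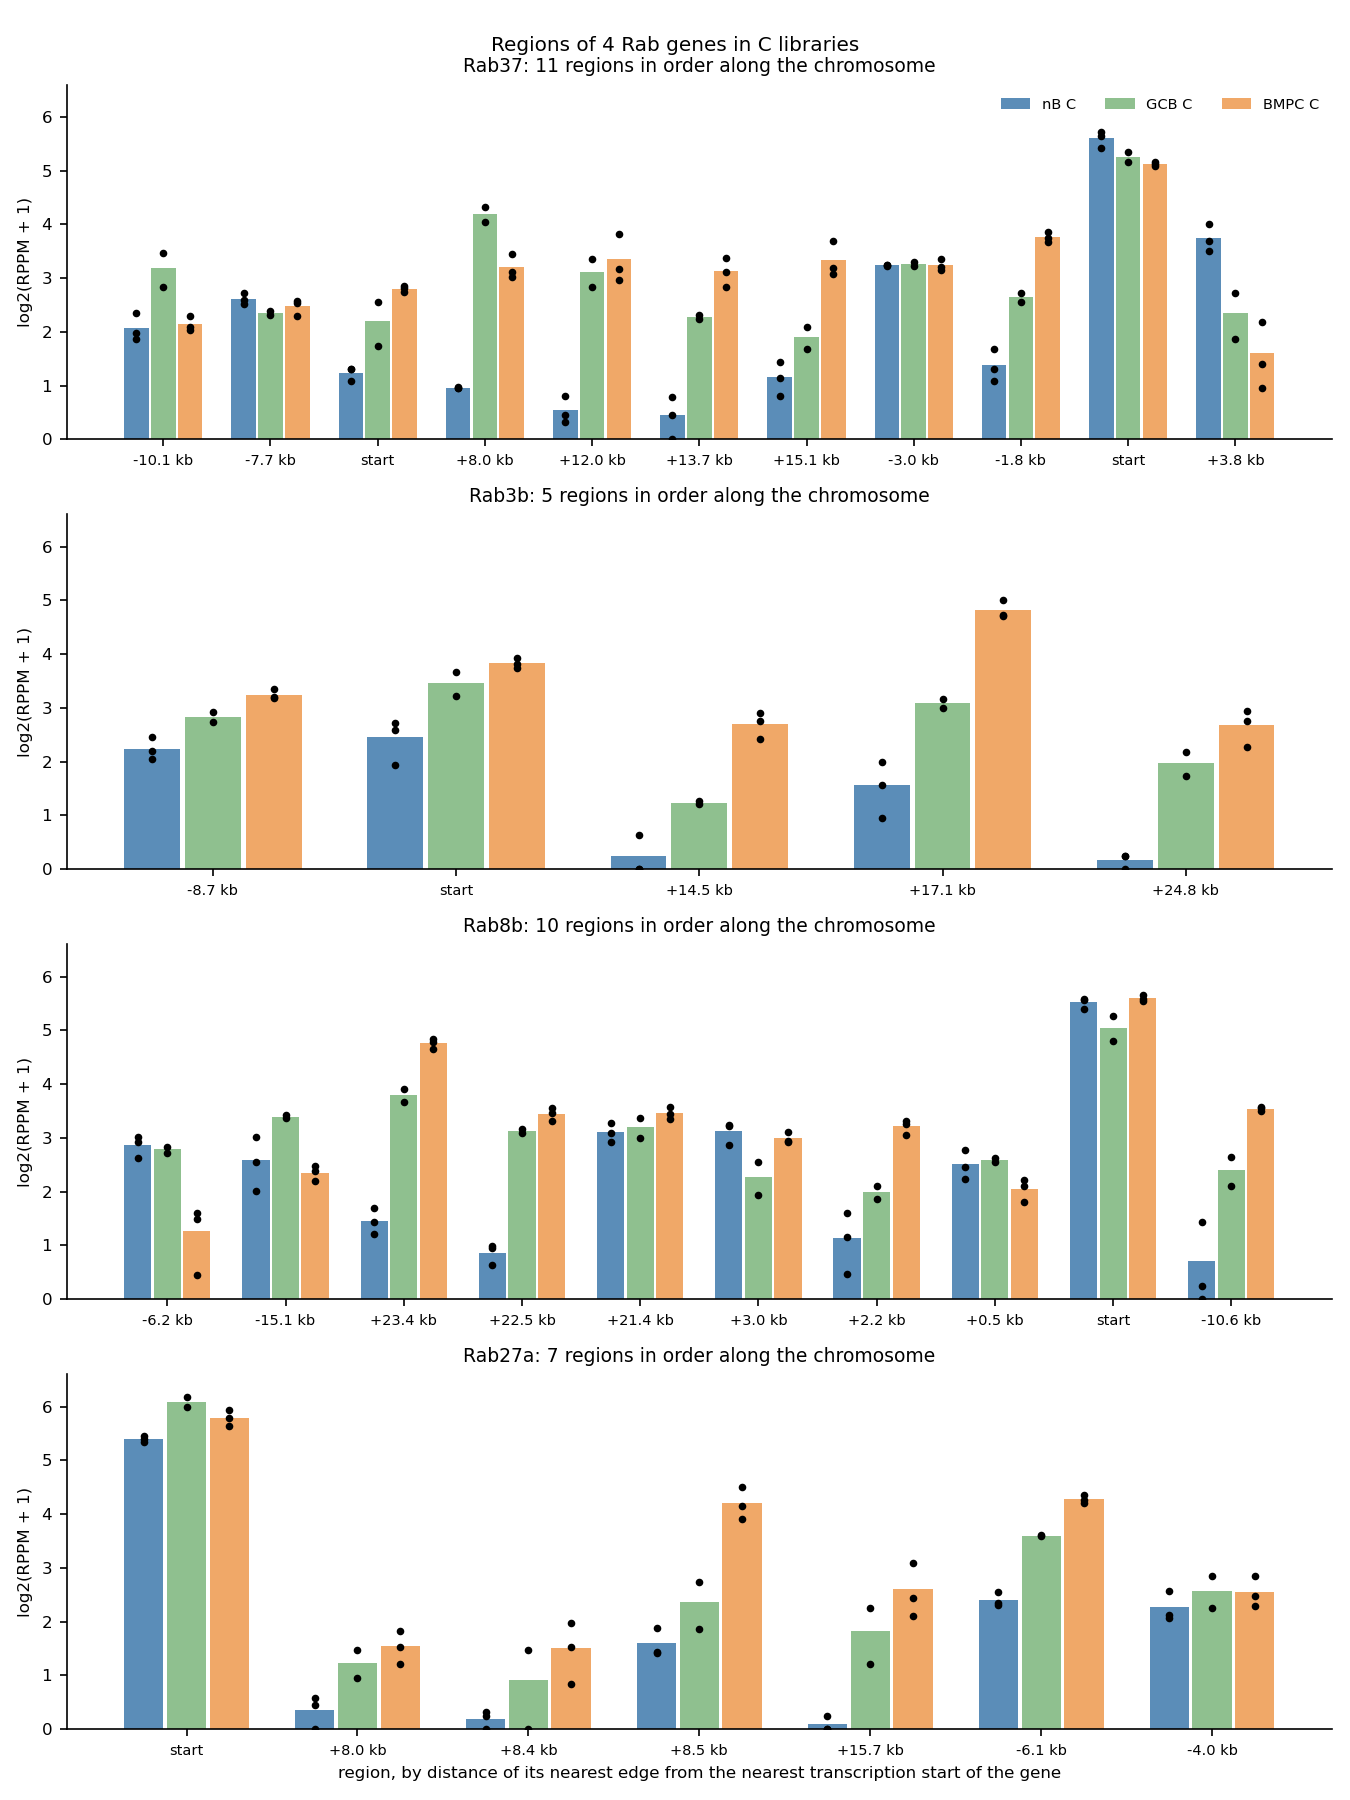
Accessibility of every region of Rab37, Rab3b, Rab8b and Rab27a in C libraries, in order along the chromosome and labelled by the distance from the annotated start in kb, with bars at log2(mean RPPM + 1) for nB, GCB and BMPC and points for single libraries. At Rab3b the BMPC bar is above the nB bar in all 5 regions, and the promoters of Rab8b and Rab27a are open in all 3 cell types.

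Other genes of this group had different patterns. The promoter of Rab32, which acts on melanosomes and other lysosome-related organelles (chr10:10277289-10278316), measured 10.2, 12.1 and 15.4 RPPM in C nB, 18.9 and 23.9 in C GCB, and 4.42, 2.01 and 2.18 in C BMPC. BMPC lay below both other cell types without overlap, with a log2 fold change of -2.58 from GCB (SE 0.28, adjusted p = 1.49e-08) and -1.85 from nB (SE 0.25, adjusted p = 3.75e-07). At Rab3d, a Rab of exocrine secretory granules, a region 16231 bp from the start and outside genes (chr9:21705821-21706333) measured 11.0, 10.7 and 8.93 RPPM in C nB, 3.08 and 1.41 in C GCB and 7.15, 6.02 and 5.45 in C BMPC. GCB lay lowest without overlap, with -1.83 from nB to GCB (SE 0.27, adjusted p = 3.03e-06) and 1.20 from GCB to BMPC (SE 0.27, adjusted p = 0.000459). The Rab3d promoter measured 34.8, 29.6 and 39.6 RPPM in C nB, 23.3 and 31.4 in C GCB and 52.8, 54.7 and 57.3 in C BMPC. BMPC lay highest, but its log2 fold change of 0.66 from nB (SE 0.13, adjusted p = 0.000116) was too small for a call.

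Early endosomal Rab genes had 6 of 26 regions called higher (23.1%, against 18% of all regions) and 3 lower (11.5%, against 20.1%) from nB to BMPC (median 0.27). They had 5 higher (19.2%, against 14.2%) and 0 lower (against 8.47%) from nB to GCB (median 0.14). From GCB to BMPC 1 was higher (3.85%, against 11.3%) and 4 lower (15.4%, against 19.1%), with a median of 0.03. The largest increase of any Rab region was at Rab21, which acts in early endosomes and integrin traffic. It lay -16996 bp from the Rab21 start (chr10:114769644-114770632), outside genes, with a transcript of Tmem19 as the nearest. It measured 0.487, 0.754 and 0.558 RPPM in C nB, which are 2, 4 and 3 reads, then 13.6 and 15.5 RPPM in C GCB and 41.6, 36.7 and 45.0 in C BMPC. KO libraries measured 0.329 and 0.590 in nB, 13.2, 11.5, 9.21 and 7.69 in GCB and 37.3 and 34.7 in BMPC. The cell types did not overlap, and nB lay near the floor in both genotypes. On the log2 scale GCB exceeded nB by 3.28 (SE 0.24, adjusted p = 2.75e-11), BMPC exceeded GCB by 1.43 (SE 0.24, adjusted p = 1.71e-05) and BMPC exceeded nB by 4.72 (SE 0.22, adjusted p = 5.38e-16).

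Rab31, a Rab of the trans-Golgi and endosomes, had an intronic region 1350 bp from the start (chr17:66120163-66120741) that was low in BMPC. It measured 12.4, 15.4 and 14.1 RPPM in C nB, 16.7 and 15.0 in C GCB, and 2.08, 1.82 and 1.56 in C BMPC. BMPC lay below the others without overlap (log2 fold change -2.41 from nB, SE 0.23, adjusted p = 5.09e-10, and -2.58 from GCB, SE 0.25, adjusted p = 2.33e-09). By contrast, the promoter of Rab5a, a core regulator of early endosome fusion, measured 100.4, 110.2 and 95.8 RPPM in C nB, 108 and 129 in C GCB, and 125, 122 and 121 in C BMPC. The BMPC level differed from nB by 0.27 on the log2 scale (SE 0.09, adjusted p = 0.0113) and was not called.

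ER and Golgi Rab genes had 8 of 47 regions called higher (17.02%) and 11 lower (23.4%) from nB to BMPC (median -0.11), near the 18% and 20.1% of all regions. They had 8 higher (17.02%, against 14.2%) and 4 lower (8.51%, against 8.47%) from nB to GCB (median 0.08), and 7 higher (14.9%, against 11.3%) and 13 lower (27.7%, against 19.1%) from GCB to BMPC (median -0.15). Rab30, a Golgi Rab, held changes in both directions. Its intronic region at -36282 bp (chr7:99931184-99932132) measured 2.19, 0.942 and 1.12 RPPM in C nB, 27.3 and 37.0 in C GCB, and 16.1, 13.7 and 14.9 in C BMPC. GCB lay highest and nB lowest, without overlap, and the log2 fold change from nB to GCB of 3.80 (SE 0.29, adjusted p = 3.80e-11) was the largest of any Rab region. A second Rab30 region 19000 bp from the start, outside genes (chr7:99987416-99988214), measured 0.487, 0.754 and 1.30 RPPM in C nB, 3.52 and 8.43 in C GCB, and 17.6, 15.1 and 30.4 in C BMPC. This region was highest in BMPC, with 3.54 from nB (SE 0.32, adjusted p = 2.46e-10).

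Rab2a, which acts between ER and Golgi, had a region at -11598 bp outside genes (chr4:8450486-8451192) that was low in GCB. It measured 13.4, 12.8 and 15.1 RPPM in C nB, 3.52 and 1.41 in C GCB and 15.2, 17.3 and 17.3 in C BMPC. The GCB libraries lay below all others, with -2.16 from nB to GCB (SE 0.32, adjusted p = 3.89e-06) and 2.42 from GCB to BMPC (SE 0.32, adjusted p = 4.09e-07). An intronic region of Rab6b 34385 bp from the start (chr9:103048790-103049600) was the reverse. It measured 6.58, 8.29 and 11.0 RPPM in C nB, 59.4 and 51.5 in C GCB and 2.99, 2.19 and 3.11 in C BMPC. GCB stood above both other cell types (2.58 from nB, SE 0.23, adjusted p = 1.13e-09) and BMPC lay lowest (-3.91 from GCB, SE 0.23, adjusted p = 1.93e-13), the latter the largest decrease of any Rab region in the 3 comparisons.

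All 3 regions of Rab39, which acts in Golgi traffic and autophagy, fell from nB to BMPC. The region 5283 bp from the start, in an intron, measured 16.8, 13.4 and 9.86 RPPM in C nB, 4.84 and 9.84 in C GCB, and 1.17, 0.365 and 0.311 in C BMPC. BMPC lay lowest without overlap, and the log2 fold change of -3.16 from nB (SE 0.29, adjusted p = 3.46e-10) was the largest decrease from nB to BMPC. The intronic region at 12058 bp (chr9:53501774-53502278) measured 6.33, 6.97 and 6.14 RPPM in C nB, 1.32 and 2.34 in C GCB, and 1.04, 0 and 0.467 in C BMPC. Its decrease from nB to GCB was -1.42 (SE 0.40, adjusted p = 0.00475), a call that some alternatives lost. The promoter fell from 80.9, 75.9 and 79.5 RPPM in C nB to 29.9, 16.2 and 19.0 in C BMPC, without overlap (-1.86, SE 0.15, limma adjusted p = 1.72e-11).

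Further ER and Golgi regions lay in or near other genes. The region annotated to Rab19 16605 bp from its start (chr6:39348033-39349083) covers an exon and 3' UTR of Mkrn1. It measured 1.71, 1.88 and 1.30 RPPM in C nB, 7.04 and 5.15 in C GCB and 25.4, 35.9 and 29.3 in C BMPC. The cell types did not overlap, with 3.56 from nB to BMPC (SE 0.36, adjusted p = 2.02e-09) and 2.14 from GCB to BMPC (SE 0.40, adjusted p = 6.33e-05). The region annotated to Rab6a at -8945 bp, inside Mrpl48 (chr7:107746612-107747154), measured 9.26, 7.16 and 8.19 RPPM in C nB, 3.08 and 3.28 in C GCB and 0.650, 1.09 and 0.156 in C BMPC, and fell by 2.53 on the log2 scale from nB to BMPC (SE 0.35, adjusted p = 4.56e-07). The region of the Golgi gene Rab33b at 21419 bp, outside genes (chr3:51309308-51309929), measured 2.20 and 1.87 RPPM in C GCB and 8.84, 10.2 and 8.56 in C BMPC, an increase of 1.75 (SE 0.32, adjusted p = 4.72e-05). The promoter of Rab1, required for traffic from ER to Golgi, measured 85.3, 119 and 95.8 RPPM in C nB, 73.0 and 79.6 in C GCB and 81.2, 99.1 and 85.5 in C BMPC, and was not called.

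**Figure D4:**
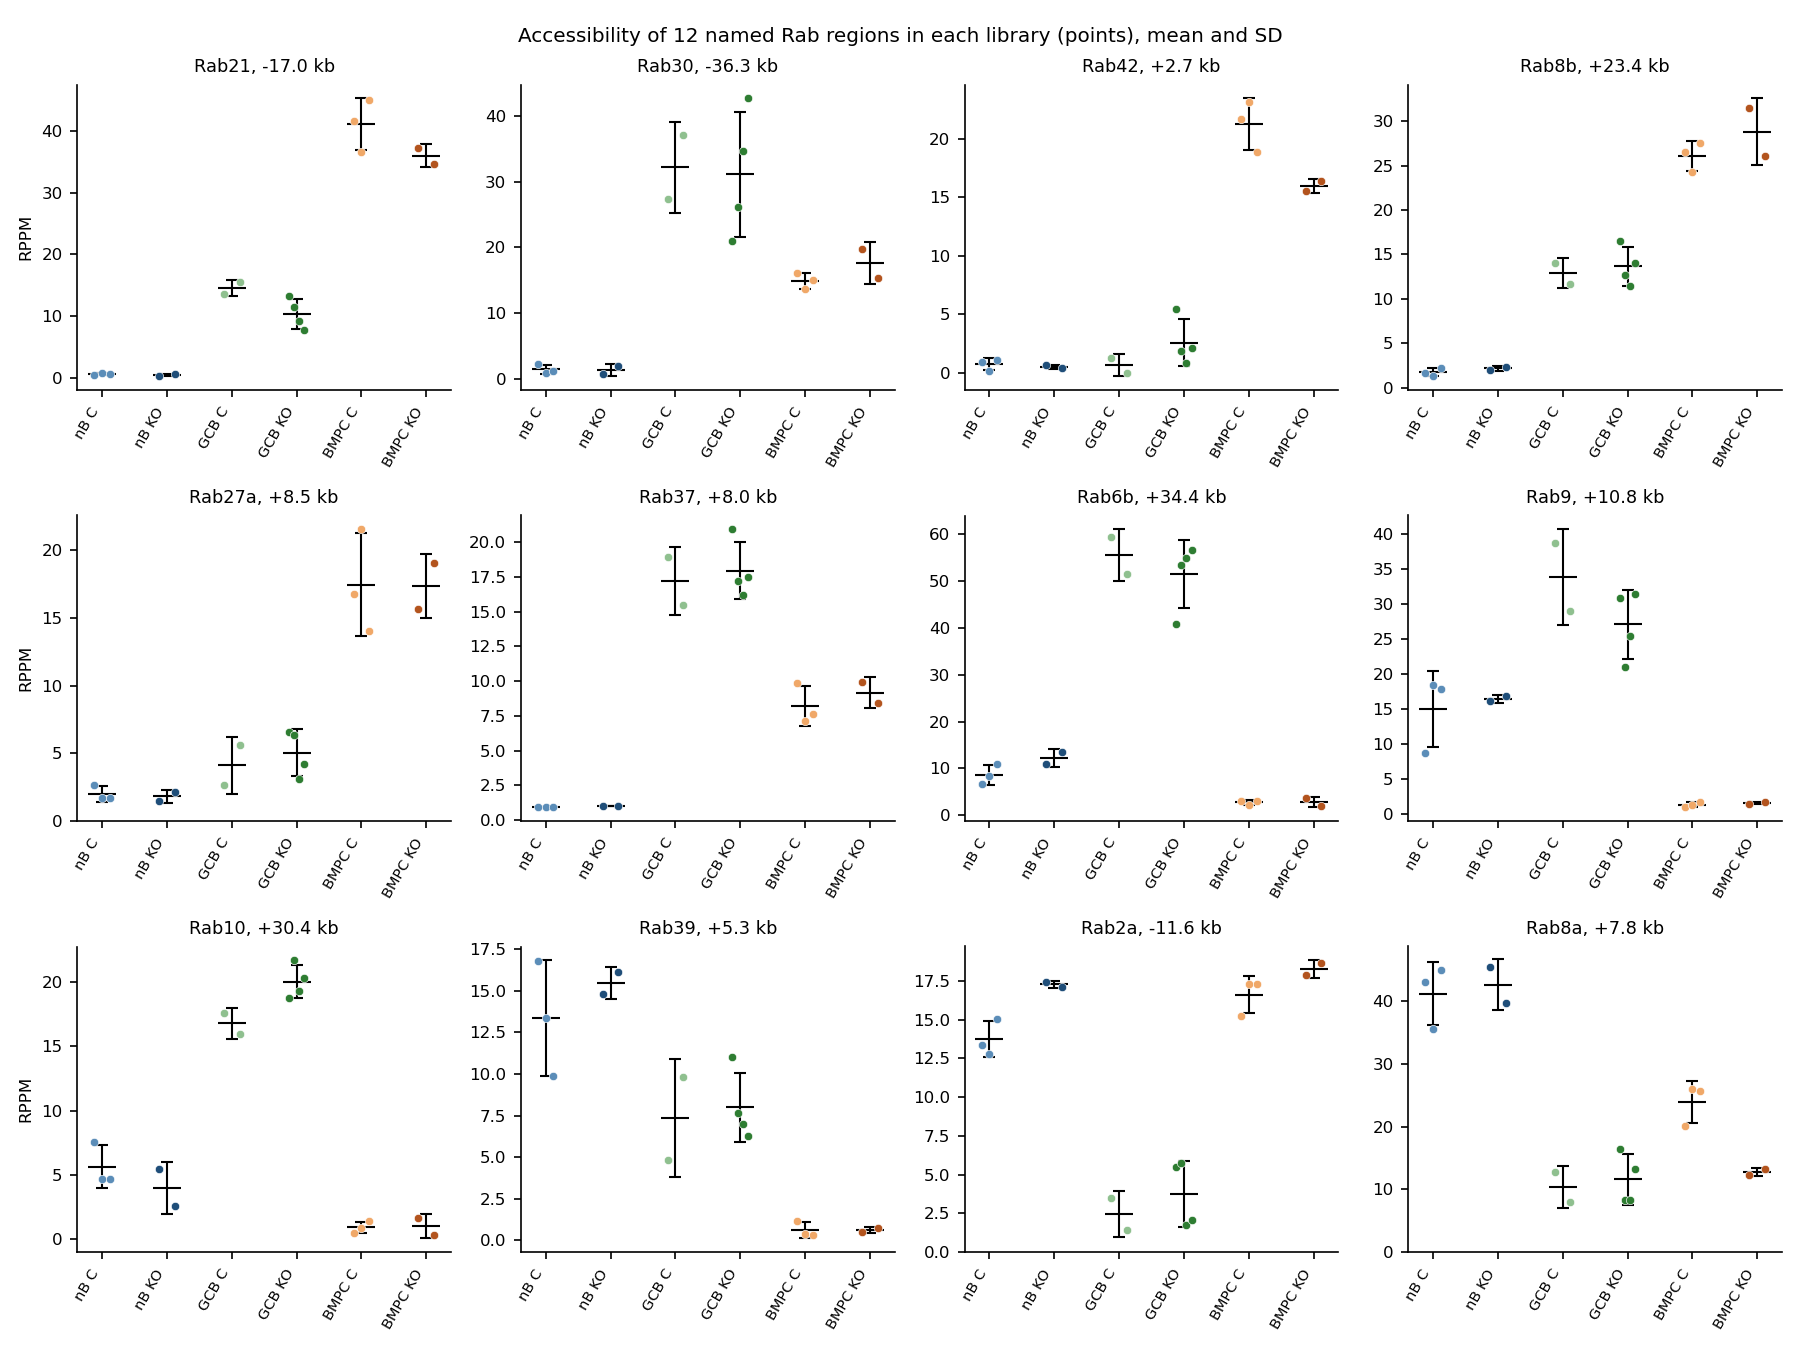
RPPM of 12 Rab regions in each of the 16 libraries (points), with the mean and SD of each group (C and KO of nB, GCB and BMPC). The Rab21 region rises from under 1 RPPM in nB to between 34.7 and 45.0 RPPM in BMPC, and the Rab39 region falls to at most 1.17 RPPM.

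Rab genes of recycling and traffic to the plasma membrane had 10 of 38 regions called higher (26.3%, against 18% of all regions) and 5 lower (13.2%, against 20.1%) from nB to BMPC (median 0.18). In GCB, 7 were higher (18.4%, against 14.2%) and 1 lower (2.63%, against 8.47%) than in nB (median 0.20). From GCB to BMPC 3 were higher (7.89%, against 11.3%) and 6 lower (15.8%, against 19.1%), with a median of 0.03. Rab8b, which acts in traffic to the plasma membrane, had its largest change in an intron 23424 bp from the start (chr9:66743053-66744087). It measured 1.71, 1.32 and 2.23 RPPM in C nB, 14.1 and 11.7 in C GCB and 26.5, 24.3 and 27.6 in C BMPC. The cell types were in rising order without overlap, with differences from nB of 2.34 in GCB (SE 0.23, adjusted p = 4.36e-09) and 3.31 in BMPC (SE 0.20, adjusted p = 1.39e-13). The Rab8b promoter measured 46.5, 41.3 and 46.9 RPPM in C nB and 45.8, 49.4 and 46.9 in C BMPC, and these groups overlapped.

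At Rab8a, which also acts in exocytosis, an intronic region 7823 bp from the start (chr8:74692923-74693837) measured 43.1, 35.6 and 45.0 RPPM in C nB, 12.8 and 7.96 in C GCB and 20.2, 26.1 and 25.7 in C BMPC. GCB lay lowest and nB highest, without overlap, and the log2 fold change to GCB was -1.92 (SE 0.23, adjusted p = 2.03e-07). Rab10, which directs vesicles to the plasma membrane, had an intronic region 30351 bp from the start (chr12:3279003-3279617). It measured 7.55, 4.71 and 4.65 RPPM in C nB, 17.6 and 15.9 in C GCB and 0.520, 0.912 and 1.40 in C BMPC. GCB lay highest and BMPC lowest, with -3.21 from GCB to BMPC (SE 0.32, adjusted p = 3.14e-09). The promoter of Rab11a, the main Rab of recycling endosomes, measured 51.6, 46.0 and 49.9 RPPM in C nB, 25.1 and 27.2 in C GCB and 49.6, 50.9 and 51.5 in C BMPC. GCB lay below both others, but changes of -0.89 from nB to GCB (SE 0.15, adjusted p = 2.02e-05) and 0.93 from GCB to BMPC (SE 0.15, adjusted p = 6.47e-06) stayed under the size needed for a call.

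Late endosomal and lysosomal Rab genes had 1 of 23 regions called higher (4.35%, against 18% of all regions) and 3 lower (13.04%, against 20.1%) from nB to BMPC (median -0.05). They had 3 higher (13.04%, against 14.2%) and 0 lower (against 8.47%) from nB to GCB (median 0.02). In BMPC against GCB 1 was higher (4.35%, against 11.3%) and 4 lower (17.4%, against 19.1%), with a median of -0.17. Rab9, which acts between late endosomes and the trans-Golgi, had an intronic region 10801 bp from the start (chrX:162906090-162906820). It measured 8.77, 18.5 and 17.9 RPPM in C nB, 38.7 and 29.0 in C GCB and 1.04, 1.28 and 1.71 in C BMPC. The cell types did not overlap, with differences from nB of 1.17 in GCB (SE 0.27, adjusted p = 0.000777) and -2.72 in BMPC (SE 0.24, adjusted p = 1.46e-10), and -3.89 from GCB to BMPC (SE 0.27, adjusted p = 2.86e-12). The promoter of Rab7, the main Rab of late endosomes, measured 49.5, 52.0 and 43.7 RPPM in C nB, 33.0 and 32.8 in C GCB and 49.0, 50.4 and 49.8 in C BMPC. It was lowest in GCB (-0.54 from nB, SE 0.13, limma adjusted p = 0.00148) and was not called.

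Rab9 lies on the X chromosome, where the sexes differ in copy number and the nB and BMPC groups differ in sex. Of the 8 X-linked Rab regions, 4 were called higher and 0 lower from nB to GCB, 1 higher and 1 lower from nB to BMPC, and 0 higher and 2 lower from GCB to BMPC. Of all 1638 X-linked regions, 11.3% were called higher and 5.86% lower in GCB than in nB, 13.4% and 18.3% in BMPC than in nB, and 6.29% and 15.8% in BMPC than in GCB. The promoter of Rab39b measured 0.931 to 1.32 RPPM in male C nB, 10.3 in the male and 8.36 in the female C GCB library, and 8.39 in the male and 9.65 to 10.8 in the female KO GCB libraries. The Rab9 promoter measured 53.9 in the male and 40.9 in the female C GCB library. In KO GCB it measured 53.8 in the male and 35.2 to 39.0 in the female libraries. At the intronic Rab9 region the male and female values were 29.0 and 38.7 in C GCB. In KO GCB they were 31.5 and 21.0 to 30.8. The part of sex was not tested. Of the 175 Rab regions that are not X-linked, 30 were higher and 7 lower from nB to GCB and 45 higher and 25 lower from nB to BMPC. In BMPC against GCB, 19 of these were higher and 29 lower.

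Among the other Rab proteins, 6 of 9 regions were called higher (66.7%, against 18% of all regions) and 0 lower (against 20.1%) from nB to BMPC (median 1.30). In GCB against nB, 2 were higher (22.2%, against 14.2%) and 0 lower (against 8.47%), with a median of 0.53. In BMPC against GCB, 1 was higher (11.1%, against 11.3%) and 1 lower (11.1%, against 19.1%), with a median of 0.48. All 3 regions annotated to Rab42, which the GENCODE models name Rab42-ps, were among the 6 called higher from nB to BMPC. The region 2688 bp from its start, outside genes (chr4:131855671-131856582), measured 0.974, 0.188 and 1.12 RPPM in C nB, 1.32 and 0 in C GCB and 21.7, 23.2 and 18.8 in C BMPC. BMPC stood apart, while nB and GCB overlapped near the floor (3.70 from nB, SE 0.37, adjusted p = 1.71e-09, and 3.86 from GCB, SE 0.41, adjusted p = 1.14e-08). The promoter of Rab40b, a Rab with a domain that binds ubiquitin ligase subunits (chr11:121249270-121250057), measured 1.22, 0.942 and 2.05 RPPM in C nB, 24.2 and 28.1 in C GCB and 10.5, 8.03 and 8.72 in C BMPC. GCB lay highest, without overlap, with 3.52 from nB to GCB (SE 0.27, adjusted p = 3.80e-11) and -1.43 from GCB to BMPC (SE 0.27, adjusted p = 5.58e-05).

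Counted by gene, 14 Rab genes had only regions called higher, 13 only lower and 6 both from nB to BMPC, and 21 had no call. For GCB against nB these were 18, 5, 2 and 29 genes, and from GCB to BMPC 13, 18, 2 and 21. As shares of the 54 Rab genes, the first 3 classes made up 25.9%, 24.1% and 11.1% from nB to BMPC, beside 23.5%, 18.7% and 9.07% of all 14917 genes with a region within the same distance. They made up 33.3%, 9.26% and 3.70% from nB to GCB, beside 24.5%, 12.7% and 3.76%, and 24.1%, 33.3% and 3.70% from GCB to BMPC, beside 17.3%, 24.2% and 6.94%. Rab genes averaged 3.39 regions and all genes 3.74. A region's direction was therefore not that of its gene at Rab37, Rab8b or Rab30, where both directions were called from nB to BMPC.

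The windows of Rab regions called higher and lower from nB to BMPC differed in their letters, and these shares are descriptions with no test. The PU.1 core was in 8 of 46 windows called higher (17.4%) and 17 of 26 called lower (65.4%), beside 21.2% and 47.8% of all windows called in those directions. The AP-1 core was in 11 of 46 called higher (23.9%) and 0 of 26 called lower, beside 11.5% and 10.3%. The IRF4 core was in 73.9% and 53.8%, beside 66.2% and 59.1%, and the XBP1 core in 0 of either. The PU.1 core was more frequent in windows called lower than in those called higher, both for Rab and for all regions. These counts say nothing of which factor is bound.

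Most Rab regions called between cell types in C mice were also called in KO mice, as were most of all regions. In GCB of KO mice, relative to nB, 41 Rab regions were higher (18.4% of all regions were) and 6 lower (7.84% of all regions). In KO BMPC relative to nB, 43 Rab regions were higher (18.4% of all regions were) and 25 lower (16.9% of all regions). From GCB to BMPC in KO mice, 24 Rab regions were higher (12.1% of all regions were) and 28 lower (19.9% of all regions). C and KO comparisons use different libraries. From nB to BMPC, 38 regions were called higher in both, which is 82.6% of the C list and 88.4% of the KO list (82.8% and 80.9% for all regions), and 22 were called lower in both, 84.6% and 88.0% (77.4% and 92.3%). For nB and GCB, 28 were higher in both (82.4% and 68.3%, against 85.2% and 65.8% of all regions) and 5 lower in both (71.4% and 83.3%, against 62.9% and 67.9%). From GCB to BMPC, 14 were higher in both (73.7% and 58.3%, against 71.8% and 66.9%) and 20 lower in both (64.5% and 71.4%, against 81.3% and 78.2%). In each of the 3 comparisons, 0 Rab regions were called in opposite directions in C and KO.

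No Rab region was called between genotypes by limma in nB, GCB or BMPC, where 0%, 0.0317% and 0.104% of all regions were called. At an unadjusted p under 0.05 there were 3, 21 and 11 Rab regions, beside 1107, 7801 and 6320 of all regions. On the whole reads recovered from the RPPM values, edgeR's quasi-likelihood test called 2 Rab regions in BMPC, its likelihood ratio test 4 and DESeq2 1. The same tests called 1.81%, 2.53% and 0.739% of all regions in BMPC. All 3 called 0 Rab regions in nB and GCB, where they called 0.0106%, 0.0151% and 0.00151% of all regions in nB and 0.00151%, 0.0181% and 0% in GCB. The difference between genotype effects in any pair of cell types, tested as an interaction in limma, called 0 Rab regions and 0 of all regions, with 14 Rab regions (7.65%, against 6.21% of all regions) at an unadjusted p under 0.05 for GCB against nB, 6 (3.28%, against 5.24%) for BMPC against nB and 11 (6.01%, against 8.32%) for BMPC against GCB. With 2 to 4 libraries per group, an effect that did not pass is not shown to be absent. The 8 Dnmt3a and 3 Dnmt3b regions were not called between genotypes either. They were not placed here against the deleted parts, which the study gives as catalytic domains, so they do not check the deletion.

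The Rab region with the smallest p between genotypes in BMPC lay 20554 bp from the start of Rab44, a large Rab of hematopoietic cells, outside genes and nearer to Cpne5 (chr17:29292556-29293121). It measured 1.17, 0.547 and 0.623 RPPM in C BMPC against 4.25 and 2.99 in KO, and 2.20 and 0.937 in C GCB against 7.71, 7.64, 5.70 and 6.29 in KO. In nB it measured 2.44, 2.45 and 1.49 in C and 2.96 and 1.97 in KO. KO libraries lay above C libraries without overlap in BMPC and GCB, and the genotypes overlapped in nB. The C values rest on 9, 3 and 4 reads in BMPC and on 5 and 2 reads in GCB, near the floor of 3 reads. The KO values rest on 35 and 16 reads in BMPC and on 7, 12, 13 and 9 reads in GCB. The share of all regions whose genotypes do not overlap is not given here. The log2 fold change was 1.38 in BMPC (SE 0.34, adjusted p = 0.0476) and 1.65 in GCB (SE 0.32, adjusted p = 0.0241), neither within the limit of 0.01. In BMPC it was called by all 3 tests of recovered reads.

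The next smallest p values in BMPC belonged to Rab30, Rab8a and Rab13. The Rab30 region at -2156 bp (chr7:99965659-99966258) measured 11.6, 5.47 and 11.8 RPPM in C and 16.9 and 17.9 in KO BMPC (0.86, SE 0.21, adjusted p = 0.0527). Its neighbor at -1761 bp (chr7:99966490-99966653) measured 2.47, 2.37 and 4.83 in C and 6.32 and 6.91 in KO (0.90, SE 0.28, adjusted p = 0.150). Both were among the Rab regions lower in C BMPC than in C GCB, and at both the KO BMPC libraries lay between C BMPC and C GCB. The intronic Rab8a region described above measured 20.2, 26.1 and 25.7 in C and 12.3 and 13.3 in KO BMPC (-0.85, SE 0.23, limma adjusted p = 0.0857). Over the alternative settings its log2 fold change ran from -0.98 to -0.70. It was thus under the size needed for a call in each of them, whatever the p. The region of Rab13, a Rab of junctions and recycling, at 3797 bp (chr3:90028537-90028963) measured 1.69, 0.912 and 1.09 in C and 6.07 and 2.80 in KO BMPC (1.23, SE 0.37, limma adjusted p = 0.132) and was called by both edgeR tests. In GCB a Rab37 region at -1782 bp (chr11:115013199-115013709), chosen after its values were seen, measured 4.84 and 5.62 in C and 18.7, 14.0, 7.45 and 15.4 in KO, a log2 fold change of 1.19 (SE 0.28, limma adjusted p = 0.0693).

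**Figure D5:**
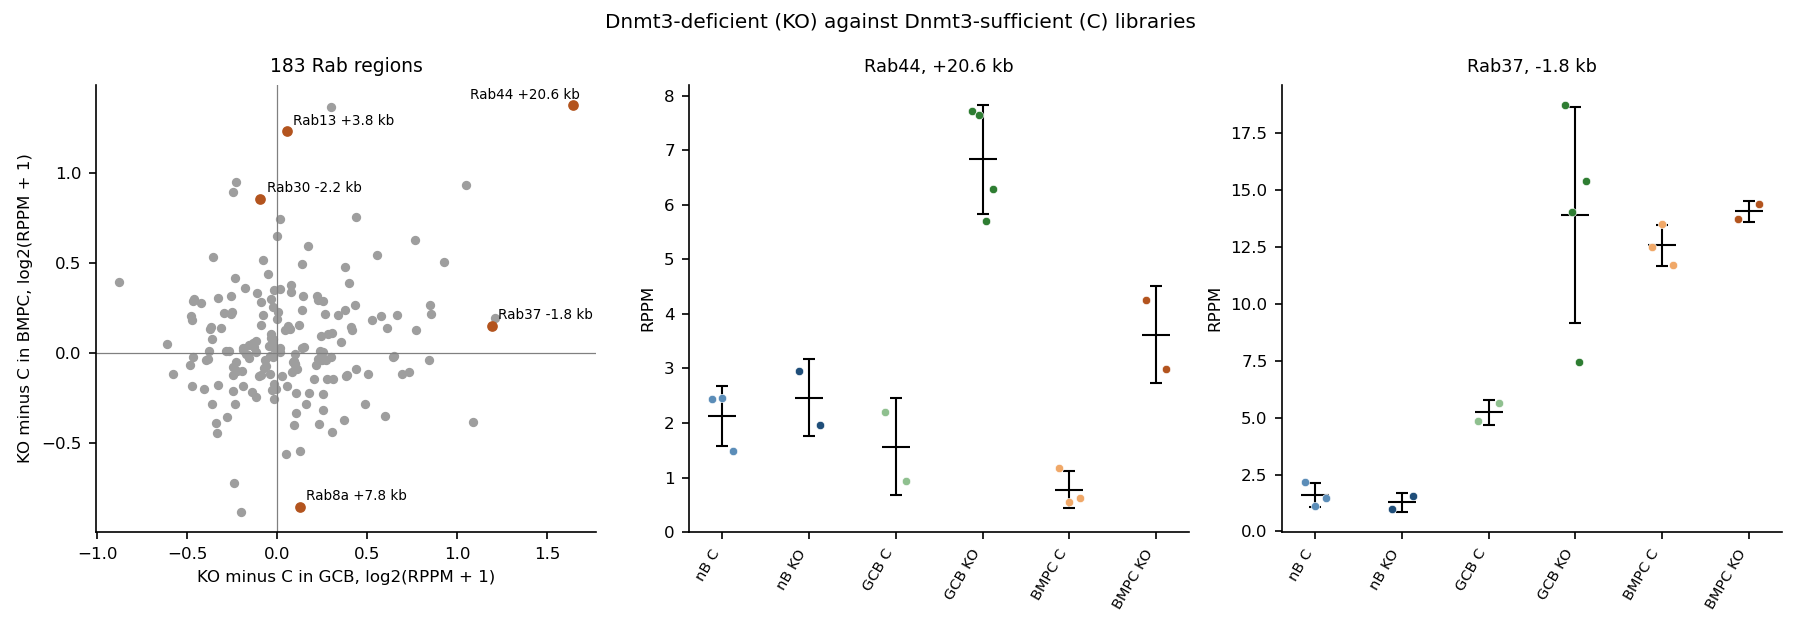
Left, KO minus C log2 fold change of the 183 Rab regions (points, with 5 regions of the text in orange) in GCB and BMPC, with no region called by limma in either. Right, RPPM per library (points), with the mean and SD of each group, at the Rab44 region 20554 bp from its start and the Rab37 region -1782 bp from its start, where the KO GCB libraries lie above the C GCB libraries at both.

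Other genes of the Rab pathway, 449 regions of 95 genes from lists of regulators and effectors, were called at shares near those of all regions. From nB to GCB 57 were called higher and 37 lower (12.7% and 8.24%, against 14.2% and 8.47% of all regions, median 0.00). Between nB and BMPC the counts were 81 and 87 (18.04% and 19.4%, against 18% and 20.1%, median 0.08), and from GCB to BMPC 60 and 81 (13.4% and 18.04%, against 11.3% and 19.1%, median 0.00). Single groups varied more, beside the 18% and 20.1% of all regions from nB to BMPC, and were not tested against them. The guanine exchange factors had 22 of 131 regions higher (16.8%) and 38 lower (29.0%). GTPase activating proteins had 36 of 191 higher (18.8%) and 34 lower (17.8%). Effectors had 22 of 104 higher (21.2%) and 11 lower (10.6%). Escort, prenylation and GDI genes had 1 of 23 higher (4.35%) and 4 lower (17.4%).

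Large increases from nB to BMPC were at Tbc1d14, a TBC-domain protein of autophagy (3.77), and at Rabgap1l (3.69). The largest decreases were at Rab3gap1, a subunit of a complex that regulates Rab3 and Rab18 (-4.41), at the endosomal effector Rufy1 (-3.52) and at Dennd2d (-3.39). The Rab3gap1 region, outside genes (chr1:129755435-129756164), averaged 40.8 ± 3.87 RPPM in C nB (SD, n = 3) and 1.02 in C BMPC, and it also fell from GCB to BMPC (-3.49). From nB to GCB the largest increases were at Tbc1d16 (3.22), Rabgap1l (3.21) and Dennd4c (3.09), and the largest decreases at the Rab5 exchange factor Rin3 (-2.21), at Sgsm3 (-1.82) and at Rab3ip, an exchange factor for Rab8 (-1.74). From GCB to BMPC large increases were at Dennd4a (2.60) and the effector Rilpl1 (2.40), and the other large decreases were at Tbc1d14 (-3.81) and Tbc1d22a (-3.24). For each of these regions every library of one cell type lay beyond every library of the other, which was a condition for naming them and not a separate result.

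Markers of other cell types were measured beside these results. Of the T cell markers only Lck of 6 genes had a promoter region, with a summed level of 40.5 RPPM in C nB, 23.8 in C GCB and 35.3 in C BMPC. Of 8 myeloid markers only Cebpe and Itgam had a region, with sums of 6.23, 4.29 and 12.6 RPPM, of which Cebpe gave 2.19, 3.16 and 11.5, and Lyz2, Csf1r, Mpo and Elane had none. Of 3 NK cell markers Klrb1c and Klrk1 had a region (1.52, 5.22 and 4.07 RPPM), and of 4 erythroid markers only Klf1 (49.5, 32.6 and 61.5 RPPM). The naive B cell markers summed to 279, 178 and 72.6 RPPM in these groups, the germinal center markers to 152, 223 and 194, with Mybl1 the most accessible, and the plasma cell markers to 256, 191 and 322, with Xbp1 the most accessible. Single markers departed from these sums. The Bcl6 promoter was lowest in GCB (53.8, 20.0 and 30.0 RPPM in C nB, GCB and BMPC), those of Fas (15.3, 20.6 and 31.2) and S1pr2 (14.4, 26.2 and 39.3) were highest in BMPC, and those of Irf4 and 2 of the 3 Prdm1 regions were highest in nB. By the study's methods, the cytometry panels also carried antibodies to CD11b, CD11c, CD90.2 and Ly6-G, given as a means to remove auto-fluorescent cells. The part of other cell types in the Rab results was not tested.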

How the data were processed

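The deposited table holds 1 value per accessible region and library. The authors aligned ATAC-seq reads to mm9 (Bowtie), ran MACS2 at a fixed q threshold on every sample, merged the peaks into a union, and deposited reads in each region per 1000000 reads in regions (RPM, named RPPM in the table). The submitters' processing notes name Bowtie 1.1.1, Picard 1.127, MACS2 2.1.0.20140616 and edgeR 3.12.1, while the study's methods name another Bowtie version. The table holds 16 of the 17 listed samples, and the third KO BMPC sample was not analysed here. The authors' log2 fold changes, p-values and FDR for 9 comparisons are deposited beside the values and were not used.

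Scaling removes total depth, so that values are relative within a library. Dividing by what 1 read is worth in a library gave whole numbers for 100% of the RPPM values, within a tolerance of 0.01, and these recovered reads were used for depth and for tests on counts. Reads carry no molecular identifiers. Groups follow cell type and genotype as labelled, and the labels give no sequencing batch. limma 3.58.1 (R 4.3.3) was fitted to log2(RPPM + 1) with 1 mean for each of the 6 groups and a trend of variance on mean, and p-values were adjusted by Benjamini-Hochberg over all 66177 regions. The test was checked on simulated data. Sums were compared by two-sided exact permutation tests (scipy 1.17.1).

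Alternatives were pseudocounts of 0.1 and 5 RPPM, quantile normalization, TMM scaling, a minimum mean of 1 RPPM, fits of the compared groups only, each library left out, a replicate block on GCB pool names, and edgeR 4.0.16 and DESeq2 1.42.0 on recovered reads. Roles, pathway lists, marker lists and the Rab genes themselves were chosen with earlier results of these data known. Regions were named by rule: in each comparison between C cell types the called Rab regions without overlap of libraries, the 5 that rose most and the 5 that fell most, at most 1 per gene and direction (for other pathway genes 3 each), the 5 smallest p for KO against C in BMPC, the 5 highest promoters, and the promoters of Rab1, Rab5a, Rab6a, Rab7, Rab11a, Rab27a, Rab27b and Rab3d, of which Rab6a and Rab27b had none in the table. Motif cores were searched with pysam 0.24.0 in mm9, and gene models were those of the table and of GENCODE. The names that the table gives to Rab genes were kept. Plots were drawn with matplotlib 3.10.9. Some items that these rules name are not reported here.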

Additional observations from a re-analysis of the deposited data

Results flagged for a closer look

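In 3 of 45 named values tested, 1 of the 4 KO GCB libraries stood apart from the other libraries of its group by Dixon's gap ratio, and chance gives such a gap in about 1 in 20 groups. At the Rab39 region 12058 bp from its start the second KO GCB library measured 8.27 RPPM and the others 2.20, 2.63 and 2.80. At the Rab6a region -8945 bp from its start, inside Mrpl48, the first KO GCB library measured 11.0 RPPM and the others 2.80, 3.07 and 3.82. At the Rab31 region 1350 bp from its start the second KO GCB library measured 21.6 RPPM and the others 12.3, 12.6 and 13.2. The first KO GCB library was the shallowest, with 907959 reads in regions, and the part of depth in these values was not tested.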

How the results depend on the processing

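A pseudocount of 5 RPPM, which compresses low values by construction, reduced the Rab regions called to 12 higher and 3 lower in GCB against nB, 28 and 13 in BMPC against nB, and 11 and 16 in BMPC against GCB. The shares of all regions at this pseudocount are not given here, so these counts do not compare Rab regions with all regions. On recovered reads, Rab regions called for KO against C in BMPC went from 0 to 2 (edgeR's quasi-likelihood test: Rab44 and Rab13), 4 (edgeR's likelihood ratio test, with Rab7b and Rab2a in addition) and 1 (DESeq2: Rab44). The quasi-likelihood test called 36 higher and 9 lower in GCB against nB, 51 and 32 in BMPC against nB and 25 and 32 in BMPC against GCB, and all other alternatives left these counts within 1.5 times. For this test, too, the shares of all regions between cell types are not given here. With each library left out in turn the counts ranged from 24 to 37 higher and 5 to 9 lower in GCB against nB, 39 to 48 and 24 to 27 in BMPC against nB, 16 to 21 and 21 to 32 in BMPC against GCB, and 0 to 0 between genotypes in nB, GCB and BMPC; where a group kept 1 library, it was assumed to vary like the others. Of 875 values of named regions under 25 settings, 860 kept their direction and side of the threshold, 10 lost their call (the Rab37 region at 3809 bp and the Rab39 region at 12058 bp, from nB to GCB), 5 gained one (Rab44 and Rab13, KO against C in BMPC) and 0 reversed. GCB pools named F2 and M1 exist in C and KO, with F2 female and M1 male in both. Correlations of deviations between C and KO pools of the same name were 0.036 and 0.064. The deviations of the 2 C GCB libraries mirror each other, so these values cannot show whether the pools are paired. A replicate block on the pool names left 0 Rab regions called between genotypes in GCB. GCB libraries were the shallowest, and the part of depth in the calls was not tested.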
